A study of Rattus norvegicus with 4 samples.

Results

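ATP-binding cassette (ABC) transporters of the liver were followed in 4 rat liver libraries. The 9 symbols Abca1, Abcg5, Abcg8, Abcb4, Abcb1a, Abcc2, Abcc3, Abcc6 and Abcd3 were matched to the gene symbols of the deposited count table, and 8 of the 32545 rows were found, 1 for each symbol except Abcb4, which was not analysed here. Of these 8 genes, 6 passed the filter on low counts and were among the 4986 genes tested. Abcg8 and Abcc3 lay under the filter and are described by their counts.

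The control group (forced activity, 2 libraries, called the controls) came from rats that were made to keep moving, and the other group (sleep restriction, 2 libraries) from rats under forced activity whose sleep was restricted as well. In each pair of values, replicate 1 stands before replicate 2. Strain, sex, age and the length of the schedule are not given in the sources used here. Nothing in the labels says that the libraries of a group came from separate animals, so p-values measure only the spread between these libraries. The comparison asks which liver transcripts differ when sleep restriction is added to forced activity.

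ABC transporters are membrane proteins that bind and hydrolyse ATP to drive lipids, drugs or metabolites across a membrane. In the hepatocyte those of the canalicular membrane empty into bile, those of the sinusoidal membrane export into blood, and those of the peroxisome bring lipids in for oxidation. Several are induced by nuclear receptors that sense sterols, bile acids or foreign compounds, among them the liver X receptors, the farnesoid X receptor, the pregnane X receptor and the constitutive androstane receptor.

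The table totals lay between 508202.6 and 520275.6 counts per library. The values step by 0.1, which averaging 10 random subsamples of the reads would give, and they were whole in nearly every row of sleep restriction 2 only. By the spread of low values, forced activity 2 had kept about 0.59 of its reads in each draw and both replicate 1 libraries at most 0.07, so the replicate 1 libraries were deeper before drawing than the replicate 2 libraries. Differences within the replicate 1 pair (deep) and the replicate 2 pair (shallow) are therefore given beside the result for all 4 libraries. All 8 hepatocyte marker genes, such as albumin (Alb) and transthyretin (Ttr), were tested and together made up 191000 to 202000 counts per 1e6 counts (CPM, scaled between libraries by TMM factors).

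None of the 6 tested transporters differed between the groups past the threshold, an adjusted p under 0.05 in edgeR's quasi-likelihood test. Over all tested genes that threshold called 0.0201%, or 1 gene of 4986. Abcg5, with a log2 change of -0.90, was the only tested transporter with an unadjusted p under 0.05 in edgeR, a level reached by 4.19% of all tested genes. DESeq2 and limma-voom called 0 of the 6 as well, with 0 and 1 of them at an unadjusted p under 0.05. edgeR on effective counts (0.0401% of all tested genes called) and with a replicate block (0.1% called) also called 0 of the 6, with 0 of them at an unadjusted p under 0.05 in either. The 6 log2 changes of sleep restriction over forced activity ran from -0.90 to 0.46 with a median of 0.043, beside a median of 0.0037 over all tested genes. The median absolute change was 0.23 for the transporters and 0.20 for all tested genes. Summed over the 8 rows, the transporters held 1140 and 1060 CPM in the controls, against 1060 and 1070 CPM with restricted sleep.

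**Figure D1:**
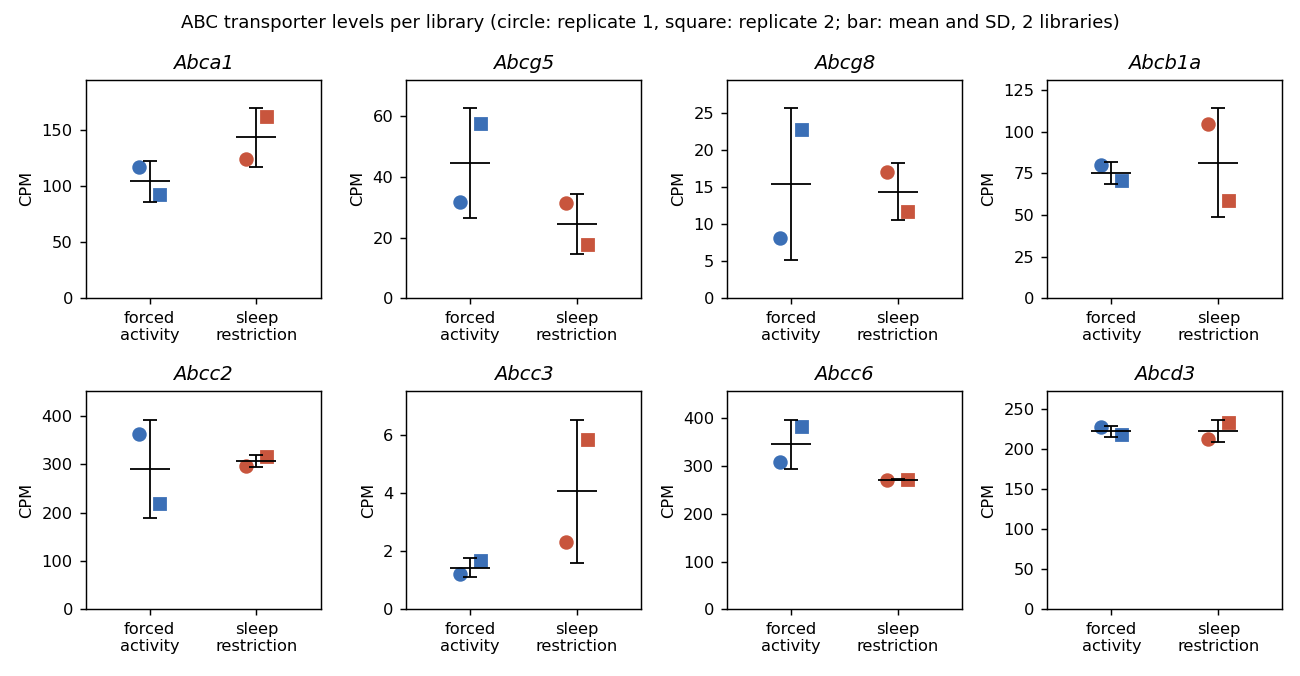
Level of each of the 8 transporters in CPM (y axis, from 0) in the 2 forced activity and 2 sleep restriction libraries (x axis); points are libraries, and bars give the mean and SD of 2 libraries. The groups do not overlap for Abca1, Abcg5, Abcc3 and Abcc6 and overlap for the other 4 genes. Of all tested genes, 32.4% do not overlap, in either direction. Abcc3 had at most 3.0 counts in a library and was not tested, and Abcg5 is separated only by 31.7 against 31.4 CPM.

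Abcg5 and Abcg8 encode the partners of a heterodimer that moves cholesterol and plant sterols into bile. They lie side by side on chromosome 6 of rn6, the build of the table, which lists no strands. Abcg5 (ENSRNOG00000005250.2) is at 7935771 to 7961207 and Abcg8 (ENSRNOG00000005420.8) at 7961413 to 7980708, leaving 205 bases between the listed intervals. In RefSeq (GRCr8) Abcg5 lies on the plus strand and Abcg8 on the minus strand, head to head with 205 bases between their starts. Their promoter windows of 300 bases (250 before the start and 50 after it) share 295 bases, so a single window shows the control region of both. It is printed because both genes were at their highest in the same library, though their lowest libraries differed. Whether they are controlled together was not tested. The Abcg5 window is chr6:15717686-15717985, plus strand, GRCr8, with capitals on the GATA box AGATAA, the CCAAT box CCAAT and the TATA box TATAAA, each searched on both strands.
Abcg5: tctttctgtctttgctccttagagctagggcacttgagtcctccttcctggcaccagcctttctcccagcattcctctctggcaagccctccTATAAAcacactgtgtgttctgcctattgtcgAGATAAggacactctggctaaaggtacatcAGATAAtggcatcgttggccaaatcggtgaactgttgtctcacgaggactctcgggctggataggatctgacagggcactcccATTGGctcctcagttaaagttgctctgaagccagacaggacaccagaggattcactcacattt
The GATA box AGATAA occurred at 126 and 96 bases before the Abcg5 start, and of the 8 transporter promoters found in RefSeq (Abcb4 included, Abcc3 not matched) only those of this pair, which share these bases, held it, against 11.6% of 33469 promoters of the same length. CCAAT occurred in 4 of the 8, against 37.5% of all, and TATAAA in 3 of the 8, against 14.2%. Each of these counts includes both genes of the pair, on the same shared bases. The TATAAA lay 158 bases before the Abcg5 start and 53 bases before the Abcg8 start, there on the opposite strand to the gene. Such a match is a description of the letters and shows no binding.

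Abcg5 was counted 15.7 and 30.9 times in the controls, against 16.2 and 9.0 times with restricted sleep. In CPM these were 31.7 and 57.4, then 31.4 and 17.5. Forced activity 2 stood above the other libraries and sleep restriction 2 below them, while both replicate 1 libraries were nearly equal, so that the groups were separated by a margin of 31.7 against 31.4 CPM. The mean was 44.5 ± 18.2 CPM in the controls and 24.4 ± 9.88 CPM with restricted sleep (SD, 2 libraries each). The log2 change was -0.90 (SE 0.37, 95% interval -1.72 to -0.078), with an adjusted p of 0.999 in edgeR. With effective counts (each library scaled to its counting noise) the log2 change was -0.62, with an unadjusted p of 0.11 in edgeR, and with the replicate block the unadjusted p was 0.0513. Within the deep pair the log2 difference was -0.011, and within the shallow pair it was -1.52. Without forced activity 2 the log2 change was -0.42, and without sleep restriction 2 it was -0.55. The 9 counts of sleep restriction 2 carry an exact 95% Poisson interval of 4.12 to 17.1, which covers counting error only. In bulk liver, fewer cells of a type and less RNA per cell cannot be told apart.

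Abcg8 was counted 4.0 and 12.2 times in the controls, against 8.8 and 6.0 times with restricted sleep, too few to pass the filter. In CPM these were 8.08 and 22.7, then 17.1 and 11.6, and the groups overlapped. Like Abcg5, Abcg8 was highest in forced activity 2, but its lowest library was forced activity 1. The means were 15.4 ± 10.3 and 14.4 ± 3.84 CPM (SD, 2 libraries each), a difference smaller than the spread within forced activity. The within-pair differences had opposite signs, 0.81 (deep pair) and -0.77 (shallow pair) on the log2 scale. The ratio of Abcg5 to Abcg8 counts was 3.92 and 2.53 in the controls, against 1.84 and 1.5 with restricted sleep. These ratios rest on at most 12.2 Abcg8 counts in a library and were not tested.

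Abca1 encodes the transporter that loads cholesterol and phospholipid onto apolipoprotein A-I to start high-density lipoprotein. Its row (ENSRNOG00000018126.7) spans chromosome 5 from 69857771 to 69983015 in rn6. Its RefSeq promoter window, chr5:72596424-72596723, minus strand, GRCr8, is printed as the sterol export gene whose values ran opposite to those of Abcg5, with capitals on the GC box GGGCGG, the E-box CACGTG and the TATA box TATAAA, searched on both strands.
Abca1: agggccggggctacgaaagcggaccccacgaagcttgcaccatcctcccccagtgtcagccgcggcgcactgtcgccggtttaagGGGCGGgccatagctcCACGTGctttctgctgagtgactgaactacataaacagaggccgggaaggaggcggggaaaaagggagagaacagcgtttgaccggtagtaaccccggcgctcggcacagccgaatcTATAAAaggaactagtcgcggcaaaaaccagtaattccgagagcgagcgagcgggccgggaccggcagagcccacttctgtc
Abca1 was the only transporter of the 8 with CACGTG, 149 bases before the start, which 6.42% of all promoters hold. Its TATAAA began 32 bases before the start. The GC box was found in 6 of the 8 transporter promoters, against 33.1% of all. DR4 is a direct repeat of AGGTCA with 4 bases between, a form of the liver X receptor element. Its exact letters were in none of the 8 windows and in 0.00598% of all promoters. Forms with other letters were not searched, so whether a window holds a liver X receptor element was not tested. AGGTCA alone, an element of many nuclear receptors, was found only in the window of Abcc2, where it occurred at 155 and 115 bases before the start, against 16.2% of all promoters.

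Abca1 was counted 58.1 and 49.3 times in the controls, against 64.0 and 83.0 times with restricted sleep, or 117 and 91.5 against 124 and 161 CPM. Both sleep restriction libraries lay above both forced activity libraries, which was so for 17.1% of all tested genes. The mean went from 104 ± 18.2 to 143 ± 26.0 CPM (SD, 2 libraries each). The log2 change was 0.46 (SE 0.24, 95% interval -0.065 to 0.98), with an adjusted p of 0.999 in edgeR. Most of this came from the shallow pair, with a log2 difference of 0.79 against 0.079 in the deep pair. The log2 change was 0.28 without forced activity 2 and 0.25 without sleep restriction 2.

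**Figure D2:**
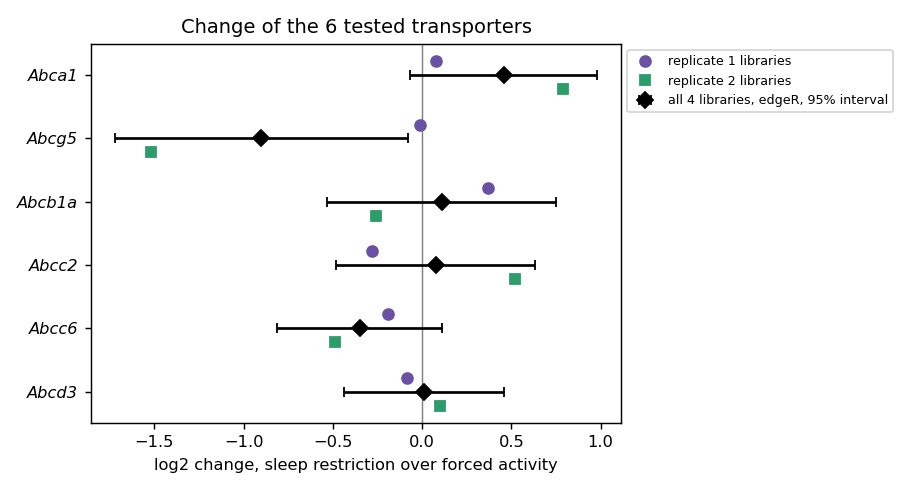
The log2 change of sleep restriction over forced activity (x axis) for the 6 tested transporters (y axis); diamonds give the edgeR estimate with its 95% interval, circles the difference within the replicate 1 libraries and squares that within the replicate 2 libraries. The interval of Abcg5 ends at -0.078 and those of the other 5 genes include 0; Abcb1a, Abcc2 and Abcd3 have opposite signs in the 2 pairs.

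Abcb1a encodes a P-glycoprotein, a multidrug export pump of the canalicular membrane and of blood vessels in barrier tissues. Its row (ENSRNOG00000008012.7) is listed from 22133521 to 22425515 on chromosome 4 of rn6, a span of 292.0 kb. In RefSeq (GRCr8) the protein-coding genes there follow in the order Crot, Abcb4, Abcb1b, Abcb1a and Rundc3b. Abcb4 is the flippase that supplies phosphatidylcholine to bile, and Abcb1b is a close copy of Abcb1a. In the table the Abcb1a interval begins 17.3 kb after Crot and ends 19.9 kb before Rundc3b, its nearest listed neighbours. The 3 genes are close in sequence, and whether the Abcb1a row also holds reads of its neighbours was not tested, so its values are uncertain.

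The Abcb1a row was counted 39.5 and 37.9 times in the controls, against 53.9 and 30.0 times with restricted sleep, or 79.8 and 70.4 against 105 and 58.2 CPM. The highest and the lowest library both belonged to sleep restriction, and the groups overlapped. The mean was 75.1 ± 6.64 CPM in the controls and 81.4 ± 32.8 CPM with restricted sleep (SD, 2 libraries each). The log2 change was 0.11 (SE 0.29, 95% interval -0.53 to 0.75), with 0.37 (deep pair) and -0.26 (shallow pair). Its sign turned without sleep restriction 1, to -0.38, and it was 0.46 without sleep restriction 2.

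**Figure D3:**
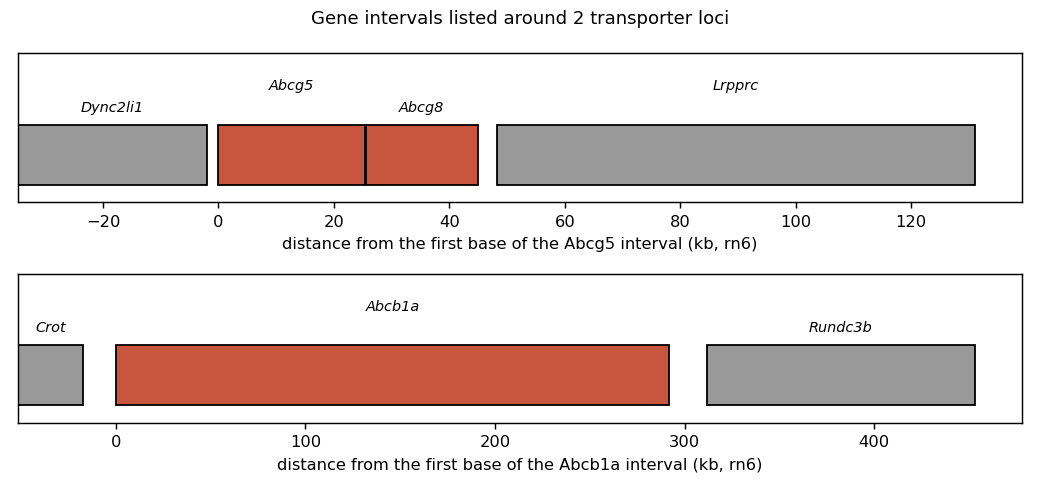
Listed gene intervals in rn6 around Abcg5 and Abcg8 (top) and Abcb1a (bottom), drawn to scale by distance in kb from the start of the Abcg5 or Abcb1a interval (x axis), with the described transporters in red and neighbours in grey. The Abcg5 and Abcg8 intervals nearly touch, and the Abcb1a interval of 292.0 kb fills most of the space between Crot and Rundc3b.

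The C subfamily holds the multidrug resistance-associated proteins. Abcc2, which exports conjugated bilirubin and glutathione conjugates into bile, is listed as ENSRNOG00000046727.2 on chromosome 1 from 263554453 to 263613252 in rn6. It was counted 179.7 and 117.7 times in the controls, against 153.3 and 163.0 times with restricted sleep, or 363 and 219 against 297 and 316 CPM. The 2 forced activity libraries were the extremes, with both sleep restriction libraries between them. The mean was 291 ± 102 against 307 ± 13.2 CPM (SD, 2 libraries each), and the log2 change was 0.076 (SE 0.25, 95% interval -0.48 to 0.63). The deep and shallow pairs gave -0.28 and 0.52, and the sign turned without forced activity 2, to -0.25, while without forced activity 1 the log2 change was 0.49.

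Abcc6, an exporter tied to ATP release from hepatocytes and to the control of calcification in other tissues, is listed as ENSRNOG00000028781.1 on chromosome 1 from 101959540 to 102013243 in rn6. It was counted 153.2 and 205.7 times in the controls, against 139.2 and 140.0 times with restricted sleep, or 309 and 382 against 270 and 271 CPM. Both sleep restriction libraries lay below both forced activity libraries, as they did for 15.3% of all tested genes. The mean was 346 ± 51.3 CPM in the controls and 271 ± 1.05 CPM with restricted sleep (SD, 2 libraries each). The log2 change was -0.35 (SE 0.21, 95% interval -0.81 to 0.11), with an adjusted p of 0.999 in edgeR. It was negative in both pairs, at -0.19 (deep pair) and -0.49 (shallow pair), and with any 1 library left out it ran from -0.50 to -0.20.

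Abcc3, which exports conjugates across the sinusoidal membrane into blood, is listed as ENSRNOG00000002948.7 on chromosome 10 from 82047863 to 82117109 in rn6. It was scarcely detected, with 0.6 and 0.9 counts in the controls, against 1.2 and 3.0 with restricted sleep. The 3 counts of sleep restriction 2 have an exact 95% Poisson interval of 0.619 to 8.77, so no difference could be detected at this depth and no fold is given.

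Abcd3, the peroxisomal membrane protein PMP70, carries fatty acyl groups and bile acid precursors into peroxisomes. It is listed as ENSRNOG00000011929.6 on chromosome 2 from 225335718 to 225389120 in rn6. Its counts were 112.4 and 117.1 in the controls, against 110.0 and 120.0 with restricted sleep, or 227 and 217 against 213 and 233 CPM, and the groups overlapped. The mean was 222 ± 6.74 against 223 ± 13.7 CPM (SD, 2 libraries each). The log2 change was 0.0091 (SE 0.20, 95% interval -0.44 to 0.46), an interval that leaves room for changes of up to 1.37-fold upwards and down to 0.738 of the control level. The 2 pairs gave -0.087 and 0.10.

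Of the 6 tested transporters, the groups did not overlap in 3, Abca1 being higher and Abcg5 and Abcc6 lower under sleep restriction, beside 32.4% of all tested genes in either direction. Both pairs of libraries had the same sign in 3 of the 6, namely Abca1, Abcg5 and Abcc6, and in 2795 of the 4986 genes tested. Groups that do not overlap must give the same sign in both pairs, so this repeats the lack of overlap. For Abcg5 the deep pair differed by only -0.011.

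**Figure D4:**
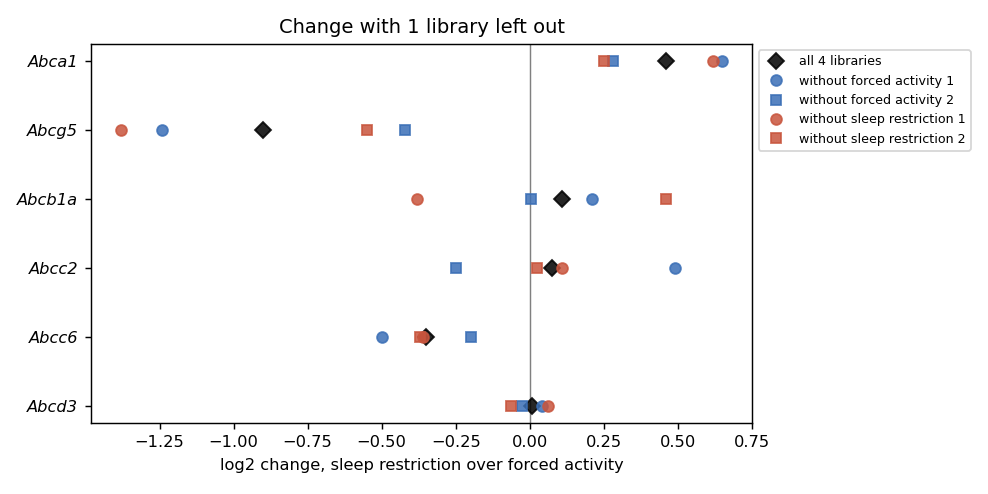
The log2 change of sleep restriction over forced activity (x axis) for the 6 tested transporters (y axis) with all 4 libraries (diamonds) and with each library left out in turn. Abcg5 ranges from -1.38 to -0.42 and Abca1 from 0.25 to 0.65, while Abcb1a, Abcc2 and Abcd3 lie on both sides of 0.

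The patterns over the 4 libraries were compared as the root mean square difference of centred log2 CPM. Among the tested transporters the closest were Abcc6 and Abcd3, at 0.22, and Abca1 and Abcc2, at 0.23, and the farthest were Abca1 and Abcg5, at 0.82. The own spread of a gene, the root mean square of its centred log2 CPM, is its distance from a gene without variation. It was 0.201 for Abcc6 and 0.0486 for Abcd3, so their 0.22 shows small variation rather than a shared pattern. For Abca1 and Abcc2 it was 0.28 and 0.264. Among the 4985 other tested genes, the closest to Abcg5 was Hba2, an alpha-globin gene of red cells, at 0.04, with 217 and 387 CPM in the controls, against 230 and 138 CPM with restricted sleep. Only 3 genes lay within 0.1 of Abcg5, which had the largest own spread of the tested transporters, 0.538. Abcd3, with the smallest, had the most genes within 0.1, so this number also depends on the spread. The closest genes were Ndel1 for Abca1 (0.017), Zdhhc5 for Abcb1a (0.029), Nt5e for Abcc2 (0.0078), Ccdc58 for Abcc6 (0.0048) and Mgea5 for Abcd3 (0.0043). With 4 libraries many genes come this close by their pattern, 105 within 0.1 of Abca1, 36 of Abcb1a, 54 of Abcc2, 145 of Abcc6 and 554 of Abcd3.

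Summed markers of other liver cells differed between libraries. Red cell markers (7 of 7 symbols with rows) summed to 888 and 1850 CPM in the controls, against 1180 and 725 CPM with restricted sleep. Like Abcg5, the sum was highest in forced activity 2 and lowest in sleep restriction 2. Of the 7 markers, 3 had that order (Hba1, Hba2 and Hbb-b1, which are hemoglobin chains), while 3 of the others were lowest in forced activity 1. Endothelial markers (11 of 12 symbols) summed to 176 and 582, then 507 and 299 CPM, and macrophage markers (12 of 12) to 685 and 907, then 1080 and 756 CPM. Like Abcg8, both sums were lowest in forced activity 1. Cholangiocyte markers (7 of 7), of the bile duct lining, summed to 54.3 and 43.3, then 47.3 and 27.1 CPM, and none of them passed the filter. Most of these sums came from Epcam, with 18.4 and 23.0, then 17.1 and 17.5 CPM, and Onecut1, with 18.8 and 14.5, then 20.4 and 3.88 CPM. They are therefore a weak reading of that cell type. Stellate cell markers (9 of 9, with Col1a2 at 0 counts in every library) summed to 644 and 581, then 714 and 535 CPM. Lymphocyte markers (10 of 10, including the immunoglobulin chains Igkc and Ighm) summed to 198 and 201, then 73.9 and 95 CPM, so that both libraries with restricted sleep lay below both controls. The part of these cells in the transporter values was not tested.

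The rest of the ABC family was described from a list of 40 symbols, of which 12 genes were tested and 0 differed past the threshold in edgeR, with 1 at an unadjusted p under 0.05. That gene was Abcb11, the bile salt export pump of the canalicular membrane. It was counted 171.9 and 164.5 times in the controls, against 227.2 and 232.0 times with restricted sleep, or 347 and 305 against 441 and 450 CPM, without overlap of the groups. Its log2 change was 0.45 (SE 0.20, 95% interval 0.011 to 0.89), with an adjusted p of 0.999 in edgeR, 0.34 (deep pair) and 0.55 (shallow pair). The 12 log2 changes ran from -0.24 to 0.45 with a median of 0.05. Abcf2, a soluble family member without membrane segments, had 0.32 (SE 0.29), which was 0.10 to 0.55 with 1 library left out, and Abca6, of the lipid-handling A subfamily, had 0.19 (SE 0.22).

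Several family members that share substrates with the described transporters were too low to test. Abcg1, which moves cholesterol to lipoproteins, was counted 3.7 and 8.9 times in the controls, against 6.8 and 3.0 times with restricted sleep. Abcg2, an exporter of urate and drugs, had 6.8 and 4.2, then 4.4 and 10 counts. Abcd2, another peroxisomal member, had 1.7 and 0.5, then 1.8 and 0.0 counts. The groups overlapped for all 3 genes.

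Partners of sterol export and genes controlled by liver X receptors numbered 18, of which 15 were tested and 0 passed the threshold in edgeR, with 2 at an unadjusted p under 0.05, both of them negative. Of the 15, 11 were negative and 4 positive, with a median of -0.11. Over all 4986 tested genes, 2372 were negative and 2614 positive. At an unadjusted p under 0.05 in edgeR, 68 of these were negative and 141 positive. Apoa1, the apolipoprotein that accepts lipid from Abca1, measured 1780 and 2070 CPM in the controls, against 1440 and 1160 CPM with restricted sleep. Its log2 change was -0.56 (SE 0.20, adjusted p 0.999 in edgeR), with -0.30 (deep pair) and -0.84 (shallow pair), the opposite sign to that of Abca1. Stard4, a cytosolic cholesterol carrier, had -1.02 (SE 0.41), which was -0.48 to -1.94 with 1 library left out. Rxra, the retinoid X receptor that pairs with liver X receptors, had 0.66 (SE 0.31), which was 0.22 to 1.24 with 1 library left out. Nr1h3, the liver X receptor alpha, had -0.02 (SE 0.23) and Srebf1, a lipogenic regulator under its control, had 0.28 (SE 0.25), which was 0.011 to 0.50 with 1 library left out. Mylip, a ligase that degrades the low-density lipoprotein receptor, was counted 3.2 and 3.0 times in the controls, against 5.3 and 5.0 times with restricted sleep and was not tested.

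Of 25 partners in canalicular secretion and xenobiotic handling, 22 were tested and 0 passed the threshold in edgeR, with 4 at an unadjusted p under 0.05, all 4 positive and Abcb11 among them. Over all tested genes, 141 were positive and 68 negative at that level. The list had 16 positive and 6 negative changes, beside 2614 and 2372 over all tested genes. Its median was 0.14, with pair medians of 0.024 (deep) and 0.25 (shallow). Hnf4a, a nuclear receptor of hepatocyte identity, measured 419 and 460 CPM in the controls, against 638 and 787 CPM with restricted sleep, and had a log2 change of 0.70 (SE 0.20, adjusted p 0.999 in edgeR). The groups did not overlap, and the pairs gave 0.60 and 0.77. Rdx encodes radixin, which anchors Abcc2 at the canalicular membrane. It measured 34.3 and 31.2 CPM in the controls, against 58.8 and 64.0 CPM with restricted sleep, and had a log2 change of 0.89 (SE 0.27, adjusted p 0.999 in edgeR), with 0.71 and 0.95 in the pairs.

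Among the receptors that control transporter genes, Nr1h4, the farnesoid X receptor for bile acids, had a log2 change of 0.43 (SE 0.21). Nr1i2, the pregnane X receptor, had -0.46 (SE 0.22), and Nr1i3, the constitutive androstane receptor, had -0.61 (SE 0.29), each with an adjusted p of 0.999 in edgeR. The Nr1i3 difference was -0.035 (deep pair) and -1.23 (shallow pair), and the log2 change was -1.11 to -0.25 with 1 library left out. Slc10a1, the sodium-dependent bile salt importer, had 0.25 (SE 0.19).

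Of 24 peroxisomal partners, 16 were tested and 0 passed the threshold in edgeR, with 0 at an unadjusted p under 0.05. Their log2 changes ran from -0.38 to 0.26 with a median of -0.03. Pxmp2, a channel of the peroxisomal membrane, had -0.38 (SE 0.20), Baat, which joins bile acids to taurine or glycine, had 0.25 (SE 0.19; 0.14 to 0.37 with 1 library left out), and Hsd17b4, an enzyme of peroxisomal beta-oxidation, had 0.25 (SE 0.20).

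**Figure D5:**
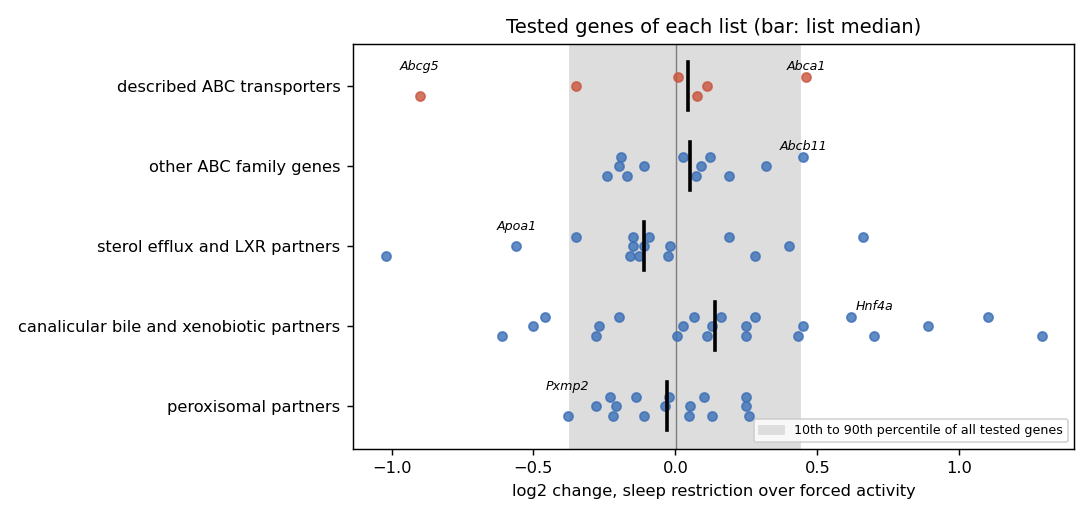
The log2 change of sleep restriction over forced activity (x axis) of each tested gene (points) in the described transporters and 4 related lists (y axis); black bars are list medians, and the grey band spans the 10th to 90th percentile of all tested genes, -0.37 to 0.44. Abcg5 and Abca1 lie outside the band and the other 4 transporters inside it.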

How the data were processed

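Liver RNA was sequenced in 4 libraries, 2 per group. TRIzol extraction and messenger RNA purification preceded library preparation, per the labels' protocols. The submitters' processing notes list CASAVA, STAR 2.4.1d and build rn6 without saying what each did, and how genes were counted was not given in the sources used here. Estimated counts per Ensembl gene were deposited by the authors.

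Values were rounded and tested with edgeR 4.0.16 (R 4.3.3): TMM factors, filterByExpr (minimum count 10), quasi-likelihood dispersions with robust estimation, and p-values adjusted by Benjamini-Hochberg over the 4986 genes retained. Log2 changes were fitted with a prior count of 0.125; each SE was derived by dividing the absolute change by the root of its F value. CPM uses the TMM-scaled totals, and within-pair log2 differences add a prior count of 2. DESeq2 1.42.0, limma 3.58.1 and the other alternatives are given at the end. Named genes are all transporters found, the 3 tested genes with the smallest p of each related list, a fixed set of 14 genes, and the closest gene to each transporter. Abcb1b, of that set, was not analysed here. A few other genes named by these rules are not reported here. The transporters and lists were chosen with earlier results of these data known. RefSeq promoters (GRCr8) were matched by symbol for 8 of 9 symbols.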

Additional observations from a re-analysis of the deposited data

How the results depend on the processing

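The count of transporters past the threshold was 0 under all 12 alternatives: DESeq2 size factors, DESeq2, limma-voom, no gene filter, 5 CPM in 2 libraries, dispersions without robust estimation, a replicate block, effective counts, and each library left out (0 to 0). No label ties equal replicate numbers to a shared animal or batch, and the numbers were not taken as a pairing (the 2 same-numbered pairs had deviations correlated at 0.206). With the replicate block 0 transporters were called, the smallest adjusted p in edgeR was 0.806, and 5 genes of 4986 were called against 1. Effective counts and DESeq2 each called 2 genes. The median log2 change of the transporters, 0.043, was 0.014 with no gene filter (8 transporters tested) and -0.023 with 5 CPM in 2 libraries (7 tested), and -0.36 to 0.04 with 1 library left out, where it was lowest without sleep restriction 1. That set then also held Abcg8, which made 7 transporters tested, and over the same 6 the median was -0.15 there and -0.15 to 0.12 over the 4 libraries left out. Abcd3, near 0 throughout, was -0.00061 with DESeq2 size factors, -0.018 with no gene filter, -0.023 with 5 CPM in 2 libraries, -0.0069 with effective counts and -0.00071 with DESeq2. Nr1h3 was 0.017 with effective counts. With 1 library left out, signs turned for Abcb1a (-0.38 to 0.46), Abcc2 (-0.25 to 0.49), Abcd3 (-0.062 to 0.062), Abca6 (-0.015 to 0.36) and Nr1h3 (-0.26 to 0.17), and the cause was not tested. A lone library is then assumed to vary like the other group. Abca1, Abcg5 and Abcc6 kept their sign under all 12 alternatives. Their groups did not overlap, so leaving out 1 library could not be expected to turn the sign. The other 8 alternatives refit the same 4 libraries, so the kept sign is no independent support.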

Other observations

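Other ABC family genes, chosen after their values were seen, differed between libraries at low counts. Abcc5, an exporter of cyclic nucleotides, was counted 2.7 and 13.1 times in the controls, against 4.5 and 2.0 times with restricted sleep. Tap1, a subunit of the peptide transporter that serves class I antigen presentation, was counted 10.3 and 8.9 times in the controls, against 6.8 and 2.0 times with restricted sleep. Abcc4, a sinusoidal exporter related to Abcc3, had 2.6 and 2.8, then 4.1 and 5.0 counts. All 3 lay under the gene filter and were not tested. Nr0b2, a repressor induced by the farnesoid X receptor and also chosen after its values were seen, had the highest log2 change of the canalicular list, 1.29 (SE 0.60), with 26.9 and 47.7 CPM in the controls, against 143 and 40.7 CPM with restricted sleep, so that sleep restriction 1 alone stood apart.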
